A study of Homo sapiens with 10 samples.

Results

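Selective autophagy delivers chosen cargo, such as aggregated proteins or damaged organelles, to lysosomes inside a double membrane called the autophagosome. Cargo receptors bind ubiquitin on the cargo with one end and a lipid-anchored protein of the ATG8 family on the growing membrane with the other, and the kinase ULK1 starts the process when nutrients or energy run short. Heat unfolds proteins, and autophagy is known, beside chaperones and the proteasome, as a route by which cells clear proteins that cannot be refolded.

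The 10 genes described here are 5 ubiquitin-binding receptors (SQSTM1, NBR1, OPTN, CALCOCO2 and TAX1BP1), 4 ATG8 family genes (MAP1LC3B, GABARAP, GABARAPL1 and GABARAPL2) and ULK1. They were taken by symbol, with earlier results of these data known, from the 63187 genes of the deposited count table. All 10 were found and all 10 passed the filter on low counts, as did 17290 genes in all. RefSeq (GRCh38.p14) places SQSTM1 on chromosome 5 (179806393 to 179838078), TAX1BP1 on chromosome 7 (27739373 to 27829767), OPTN on chromosome 10 (13100082 to 13138308), and GABARAPL1 (10212877 to 10223128) and ULK1 (131894622 to 131923150) on chromosome 12. GABARAPL2 (75566379 to 75577881) and MAP1LC3B (87392336 to 87404774) lie on chromosome 16, and GABARAP (7240008 to 7242449), NBR1 (43170409 to 43211688) and CALCOCO2 (48831035 to 48865245) on chromosome 17.

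Total RNA was sequenced from the osteosarcoma cell line U2OS in 3 groups of 2 libraries: control cells without heat shock (control reagent, labelled wild type), control cells after heat shock, and heat-shocked cells depleted of YTHDC1, a nuclear protein that reads m6A, a methylated base of messenger RNA. The labels name the reagents both as sh and as si, and they give neither the temperature and duration of the heat shock nor how long the knockdown lasted. There was no unheated knockdown group, so an effect of the knockdown before heating was not measured, and all groups are 1 cell line. The 4 methylated RNA immunoprecipitation samples of the series were not analysed here. Libraries held 13252370 to 15500743 counts. Levels are given as CPM, the gene's counts over the library's TMM-scaled total per 1000000 counts. The 2 knockdown libraries held 121 and 118 CPM of YTHDC1, the targeted gene, against 267 and 258 CPM in heated and 212 and 224 CPM in unheated control cells. Of 12 osteoblast and mesenchymal markers 7 reached 1 CPM in every library, among them COL1A1, VIM, FN1 and RUNX2, whereas SP7, IBSP, BGLAP and TWIST1 stayed at or below 0.126 CPM. Not all of these markers, nor all of those of other cell types, stayed level. VIM was at 1590 CPM in both heated controls and at 1160 and 1130 CPM in the knockdown, and CDH2 at 156 and 166 and then 309 and 283 CPM. Between the same groups COL1A1 went from 1360 and 1420 to 1930 and 1790 CPM, and FN1 from 1080 and 1100 to 1860 and 1370 CPM. COL1A2 went from 0.691 and 0.0715 to 2.25 and 2.22 CPM, and SPP1 from 5.14 and 4.51 to 1.05 and 1.32 CPM. RUNX2 was at 20.8 and 21.8 CPM in unheated and 13.4 and 14 CPM in heated controls. The summed level of 6 epithelial markers was 54 to 57.6 CPM in unheated controls, 70.5 to 79.3 CPM in heated controls and 91.9 to 98 CPM in the knockdown, and that of 6 blood markers was 15.5 to 16.2, 18.8 to 23 and 4.85 to 6.88 CPM, mostly LCP1. Of the blood markers, LCP1 was at 15.4 to 17 CPM in control libraries and 4.07 and 4.31 CPM in the knockdown. HBA2, a globin, was at 0 in both unheated controls, 1.07 and 6.3 CPM in heated controls and 0.351 and 1.6 CPM in the knockdown. PTPRC, CD68, HBA1 and HBB did not exceed 0.694 CPM. The part of these markers in the results below was not tested.

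Promoter sequences are shown first for the members with a motif tied to heat or to oxidative stress. RefSeq start sites gave 15 windows of 300 bases (250 before and 50 after the start) for the 10 genes, and all were searched on both strands. The full heat shock element of 3 units (GAANNTTC followed by NNGAA), which HSF1 binds, was in 0 of the 15 windows and in 0.49% of the 35116 windows of all genes. Its 2-unit part GAANNTTC, which the longer motif contains, was in 2 windows, 1 of TAX1BP1 and 1 of GABARAPL2, against 6.77% of all windows, and TTCNNGAA was in 0 (7.74% of all). The core TGACNNNGC of the antioxidant response element was in the windows of MAP1LC3B and CALCOCO2 (13.3% of all), and GTAAACA, a FOXO motif, was in that of CALCOCO2 (3.42% of all). CACGTG, the E-box core that TFEB family factors bind, was in 0 of the 15 (7.26% of all). The 250 bases before the start are given 5′ to 3′, all on the plus strand of GRCh38.p14, with the matches to GAANNTTC, TGACNNNGC (or its reverse complement GCNNNGTCA) and GTAAACA in capitals.
TAX1BP1, first start, chr7:27739123-27739372: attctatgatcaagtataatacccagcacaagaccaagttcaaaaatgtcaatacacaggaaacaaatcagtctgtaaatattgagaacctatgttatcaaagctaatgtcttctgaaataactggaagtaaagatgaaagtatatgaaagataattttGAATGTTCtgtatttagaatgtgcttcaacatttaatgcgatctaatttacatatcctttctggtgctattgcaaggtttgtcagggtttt
GABARAPL2, chr16:75566129-75566378: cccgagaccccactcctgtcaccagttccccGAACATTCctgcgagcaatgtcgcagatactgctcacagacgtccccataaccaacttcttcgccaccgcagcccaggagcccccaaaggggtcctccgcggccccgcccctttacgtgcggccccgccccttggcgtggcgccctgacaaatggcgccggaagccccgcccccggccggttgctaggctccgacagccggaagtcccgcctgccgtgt
MAP1LC3B, chr16:87392086-87392335: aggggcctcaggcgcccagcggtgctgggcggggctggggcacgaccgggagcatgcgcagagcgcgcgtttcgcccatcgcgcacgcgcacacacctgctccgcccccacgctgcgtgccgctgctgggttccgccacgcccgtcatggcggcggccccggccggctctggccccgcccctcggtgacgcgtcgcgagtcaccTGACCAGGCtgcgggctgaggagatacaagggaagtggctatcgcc
CALCOCO2, chr17:48830785-48831034: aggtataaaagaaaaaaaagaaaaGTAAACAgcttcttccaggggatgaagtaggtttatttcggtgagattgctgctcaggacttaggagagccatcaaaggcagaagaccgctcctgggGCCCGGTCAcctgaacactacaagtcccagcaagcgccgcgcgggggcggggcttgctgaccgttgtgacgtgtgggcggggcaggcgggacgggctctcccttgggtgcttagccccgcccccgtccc
These windows are also unlike in base composition. The TAX1BP1 window shown had 33% G and C with 3 CpG, its second start had 60% with 27 CpG, and MAP1LC3B had 75.7% with 42 CpG, against medians of 58.7% and 14 CpG over all windows. A match describes letters in a window and shows no binding.

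Heat shock of control cells split the members. TAX1BP1 and MAP1LC3B rose by 1.42-fold and 1.46-fold, GABARAPL2 rose by 1.21-fold, SQSTM1 and NBR1 fell by 15.2% and 20%, and ULK1 fell to 59.4% of its unheated level. Of the 10, 4 were higher and 3 lower at an edgeR adjusted p under 0.05. Over all 17290 genes tested 43.9% were called, 20.6% higher and 23.3% lower. With library size alone as the scaling 36.5% of all calls were higher, against 46.9% here. The median log2 fold change of the members was 0.11, and that of all genes was -0.03. No member changed 2-fold. In bulk RNA, fewer cells with a transcript and less of it per cell cannot be told apart.

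**Figure D1:**
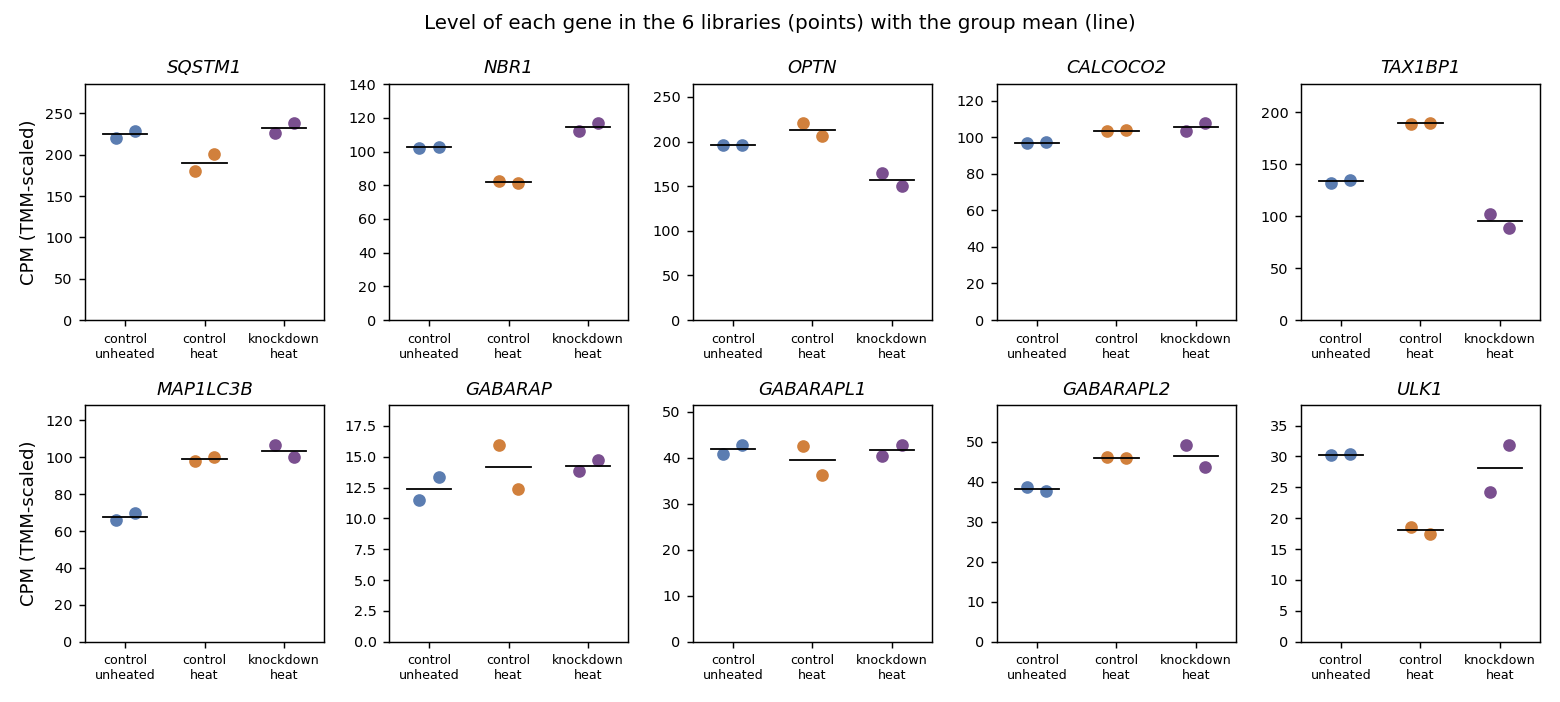
Level of each of the 10 genes (vertical axis, TMM-scaled CPM from 0) in the 2 libraries (points) of each group, with the group mean as a line. In SQSTM1, NBR1 and ULK1 the heated controls are the lowest group, in TAX1BP1 they are the highest, and in MAP1LC3B both heated groups lie above the unheated controls.

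Among the receptors, SQSTM1, which gathers ubiquitinated proteins into condensates and also binds KEAP1, was at 221 and 229 CPM without heat and at 180 and 201 CPM after it. The groups did not overlap, but the heated libraries differed from each other by more than the unheated ones. The log2 fold change was -0.24 ± 0.05 (SE, n = 2 per group, edgeR adjusted p = 5.61e-04), and it was -0.32 without heated control replicate 2 and -0.16 without heated control replicate 1. SQSTM1 shares 474 bases of its span with MGAT4B and 803 with MRNIP. MGAT4B also fell (group means 89.1 and 68.6 CPM), and MRNIP had group means of 20.2 and 19.2 CPM without a call. Reads from the shared ends cannot be assigned with certainty, since the sources used here do not say whether strand was used in counting.

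NBR1, a larger receptor of similar domain order that works in the same condensates, was at 102 and 103 CPM and then at 82.8 and 81.1 CPM. Both heated libraries lay below both unheated ones (log2 fold change -0.32 ± 0.05, adjusted p = 2.04e-05). TAX1BP1, a receptor that is drawn to SQSTM1 condensates through NBR1, went the other way, from 132 and 135 CPM to 189 and 189.6 CPM (0.50 ± 0.05, adjusted p = 5.16e-08). Larger changes in either direction were seen in 29.2% of all tested genes. OPTN, a receptor of damaged mitochondria and bacteria that TBK1 phosphorylates, was at 195.8 and 196 CPM and then at 221 and 206 CPM. Its call was marginal (0.12 ± 0.05, adjusted p = 0.0498) and was lost without unheated replicate 1 (adjusted p = 0.204), unheated replicate 2 (0.208) or heated control replicate 1 (0.413). It was also lost with library size alone as the scaling (log2 fold change 0.05, adjusted p = 0.408), with DESeq2 (0.158), with limma voom (0.056), with no filter (0.0594) and without robust estimation (0.0616). CALCOCO2, a receptor of bacteria and mitochondria, was at 96.6 and 97.4 CPM and then at 103 and 104 CPM, and did not pass (0.09, 95% interval -0.01 to 0.20, adjusted p = 0.143), though it did in the fit of only the 2 groups (0.0251).

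ATG8 family genes encode the small ubiquitin-like proteins that are joined to lipid in the autophagosome membrane. MAP1LC3B, the usual marker of autophagosomes, rose from 65.8 and 69.9 CPM to 98.1 and 100.1 CPM, with no overlap (log2 fold change 0.55 ± 0.06, adjusted p = 2.08e-08). GABARAPL2 went from 38.7 and 37.8 CPM to 46.1 CPM in both heated libraries (0.27 ± 0.07, adjusted p = 0.00371), a call that DESeq2 did not make (adjusted p = 0.056). GABARAP, the least abundant of the 4, was at 11.5 and 13.3 CPM and then at 16 and 12.4 CPM, with overlapping groups (0.19, 95% interval -0.08 to 0.46, adjusted p = 0.254). It shares 821 bases with PHF23, which fell (group means 61 and 39.5 CPM). GABARAPL1 was at 40.8 and 42.8 CPM and then at 42.6 and 36.3 CPM (-0.09, 95% interval -0.25 to 0.07, adjusted p = 0.397). A rise of the size seen in GABARAPL2 lies inside the interval of GABARAP and outside that of GABARAPL1.

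ULK1, the kinase that starts autophagosome formation, had the largest change of the 10 with heat. ULK1 stood at 30.15 and 30.5 CPM without heat and at 18.6 and 17.45 CPM after it (log2 fold change -0.75 ± 0.11, adjusted p = 4.36e-06), and 17% of all tested genes changed further.

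Knockdown of YTHDC1 in heated cells moved 4 of the 5 receptors and ULK1, and neither CALCOCO2 nor any ATG8 member passed. TAX1BP1 fell to 50.4% of heated controls and OPTN to 73.7%, whereas ULK1, NBR1 and SQSTM1 rose 1.56-fold, 1.4-fold and 1.22-fold. Of the 10, 5 were called, 3 higher and 2 lower. That is no larger a share than the 54.5% called over all genes tested, 27.4% higher and 27.2% lower. Whether receptors and ATG8 genes differ as groups was not tested. The members' median log2 fold change was 0.04 and that of all genes was -0.00. This comparison and the heat shock comparison share the heated control libraries, so a low value there lowers one fold change and raises the other.

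**Figure D2:**
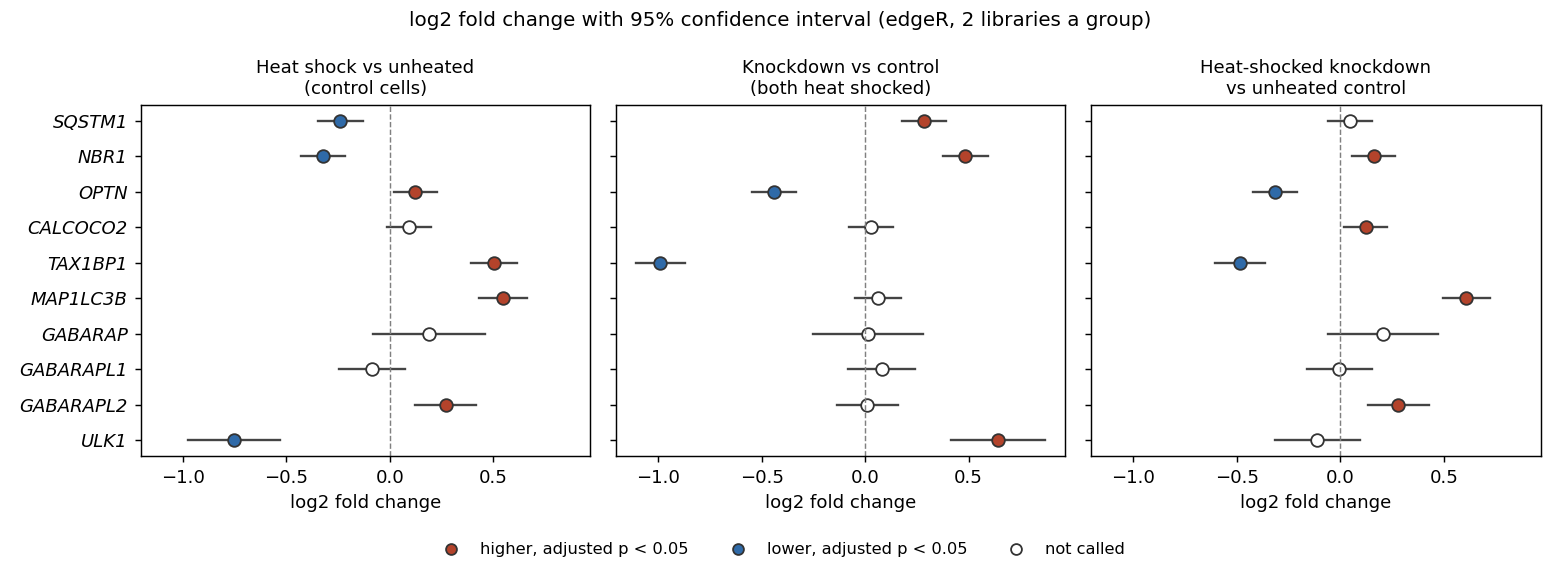
log2 fold change (horizontal axis) of each gene in the 3 comparisons, with its 95% confidence interval, filled where the edgeR adjusted p was under 0.05. TAX1BP1 is at 0.50, -0.99 and -0.48 from left to right, MAP1LC3B at 0.55, 0.06 and 0.61, and ULK1 at -0.75, 0.64 and -0.11.

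TAX1BP1 stood at 102.5 and 88.3 CPM in the knockdown, below both other groups in both libraries. The log2 fold change against heated controls was -0.99 ± 0.06 (edgeR adjusted p = 4.97e-13), and 14.2% of all tested genes changed further. OPTN was at 165 and 149.9 CPM, again below every control library (-0.44 ± 0.05, adjusted p = 1.12e-07). NBR1, at 112 and 117 CPM, was above every control library (0.48 ± 0.05, adjusted p = 3.22e-08). SQSTM1 was at 226 and 238 CPM, above both heated controls and next to the unheated ones (0.29 ± 0.05, adjusted p = 5.53e-05). Of the genes that share bases with SQSTM1, MGAT4B was also higher (0.18, adjusted p = 0.00876) and MRNIP had no call. Reads from the shared ends are uncertain here as well. CALCOCO2, at 103 and 108 CPM, did not pass (0.03, 95% interval -0.08 to 0.13, adjusted p = 0.669).

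In the ATG8 family the knockdown libraries held 107 and 100.2 CPM of MAP1LC3B, 13.8 and 14.7 CPM of GABARAP, 40.45 and 42.8 CPM of GABARAPL1, and 49.3 and 43.6 CPM of GABARAPL2. The fold changes against heated controls did not pass for MAP1LC3B (log2 0.06, 95% interval -0.05 to 0.17, edgeR adjusted p = 0.354), GABARAP (0.02, -0.25 to 0.28, adjusted p = 0.931), GABARAPL1 (0.08, -0.08 to 0.24, adjusted p = 0.404) or GABARAPL2 (0.01, -0.14 to 0.16, adjusted p = 0.911). All 4 intervals end below the change of NBR1, and that of GABARAP is the widest. ULK1 was at 24.2 and 31.9 CPM, with the knockdown libraries further apart than those of the other groups but both above heated controls (0.64 ± 0.11, adjusted p = 3.23e-05). Its log2 fold change was 0.43 without knockdown replicate 2 and 0.82 without knockdown replicate 1.

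Heated knockdown cells were also set against unheated controls, to see where each gene stood relative to the unstressed level. There 4 members were higher and 2 lower, against 62.2% of all genes called, 31.1% in each direction. MAP1LC3B was 1.53-fold higher (log2 fold change 0.61 ± 0.06, edgeR adjusted p = 1.20e-09) and GABARAPL2 1.21-fold (0.28 ± 0.07, adjusted p = 0.00158), the latter losing its call without knockdown replicate 1 (0.051). TAX1BP1 was at 71.5% (-0.48 ± 0.06, adjusted p = 9.64e-08) and OPTN at 80.3% (-0.32 ± 0.05, adjusted p = 9.78e-06) of the unheated level. SQSTM1 (log2 0.05, 95% interval -0.06 to 0.15, adjusted p = 0.43) and ULK1 (-0.11, -0.32 to 0.09, adjusted p = 0.342) did not pass, and ULK1 was called lower without knockdown replicate 2 (-0.32, adjusted p = 0.00535) and was at 0.07 (adjusted p = 0.583) without knockdown replicate 1. NBR1 and CALCOCO2 were called higher by small amounts (log2 0.16 and 0.12, adjusted p = 0.00757 and 0.0404). Those 2 calls were lost with library size alone (adjusted p = 0.0738 and 0.268), which left 2 members higher and 2 lower, with DESeq2 (0.0794 and 0.207), and without unheated replicate 1 (0.0845 and 0.208) or replicate 2 (0.0624 and 0.172). That of CALCOCO2 was lost as well without heated control replicate 1 (0.0619) or replicate 2 (0.069) and without knockdown replicate 2 (0.172).

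Ratios of counts within a library do not depend on how libraries are scaled. For each NBR1 count there were 1.3 and 1.31 TAX1BP1 counts in unheated controls, 2.28 and 2.34 in heated controls, and 0.914 and 0.756 in the knockdown. The 3 pairs of values did not overlap and had the order of the TAX1BP1 level. By contrast, the number of SQSTM1 counts for each NBR1 count was 2.17 and 2.22, then 2.17 and 2.48, and 2.02 and 2.04. Those of the unheated and heated controls overlapped, and both knockdown values lay below every control value. The MAP1LC3B counts for each SQSTM1 count were 0.298 and 0.306 in unheated controls, 0.545 and 0.499 in heated controls and 0.472 and 0.42 in the knockdown.

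Levels of different genes were compared per kilobase of the deposited gene length, which may differ from that of the transcripts expressed. The order depends on this division: without it SQSTM1 (mean 225 CPM) stood above OPTN (196 CPM) in unheated controls. In unheated controls OPTN led at 38.1 CPM per kb, followed by SQSTM1 at 29.8, TAX1BP1 at 14.6, MAP1LC3B at 13.5, GABARAPL2 at 12.7, NBR1 at 12.2, CALCOCO2 at 11.7, GABARAPL1 at 10.3, GABARAP at 6.35 and ULK1 at 3.98. SDs over the 2 libraries ran from 0.0282 for ULK1 to 0.74 for SQSTM1. MAP1LC3B (13.1 and 13.9 per kb) and GABARAPL2 (12.8 and 12.6) were close without overlap. In heated controls the first 5 places were the same, with TAX1BP1 at 20.6 and MAP1LC3B at 19.7 per kb, and NBR1 (9.74 ± 0.143) and GABARAPL1 (9.73 ± 1.11) did not differ beyond their spread. In the knockdown SQSTM1 (30.8 ± 1.16) and OPTN (30.6 ± 2.04) did not differ beyond their spread, MAP1LC3B was the third at 20.5, and TAX1BP1 was the seventh at 10.4 ± 1.09, next to GABARAPL1 at 10.3 ± 0.407.

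**Figure D3:**
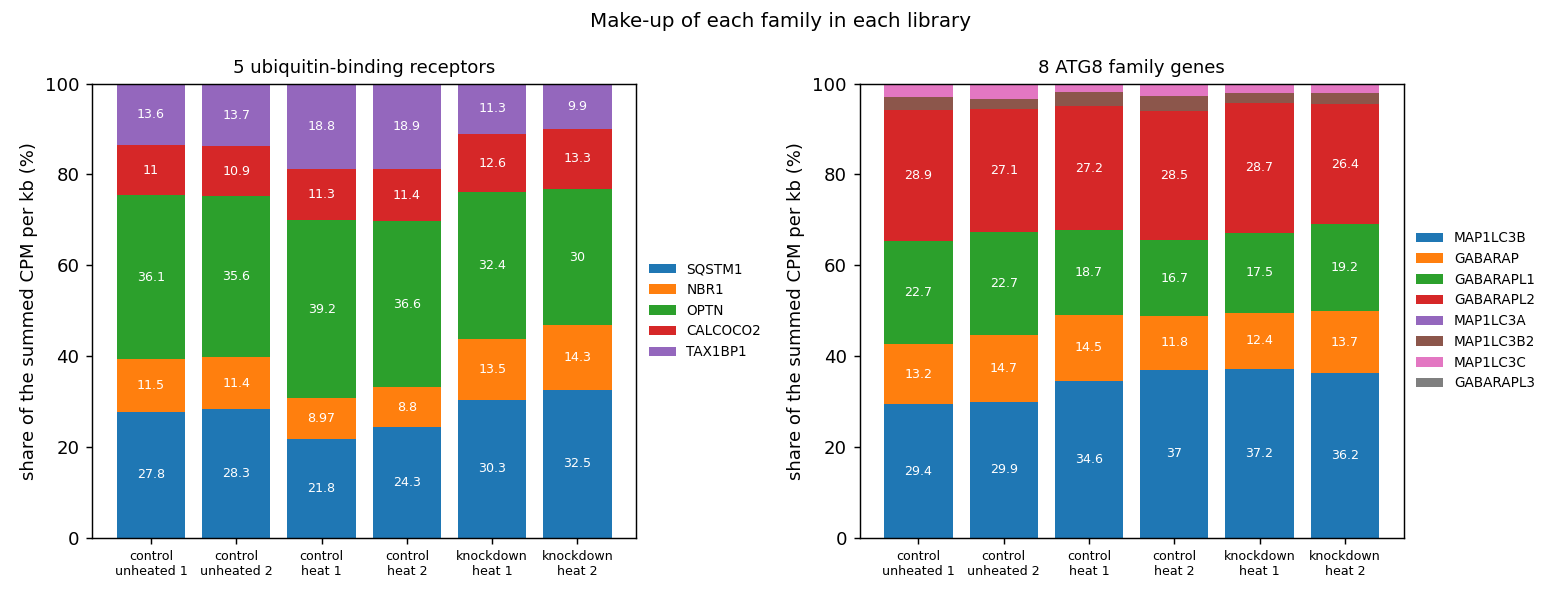
Share (vertical axis, percent) of each gene in the summed CPM per kb of its family, in each of the 6 libraries, for the 5 receptors (left) and 8 ATG8 family genes (right). TAX1BP1 takes 13.6% and 13.7% of the receptors in unheated controls, 18.8% and 18.9% in heated controls and 11.3% and 9.9% in the knockdown, and MAP1LC3B takes the largest ATG8 share in every library.

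The share of MAP1LC3B in the ATG8 family was larger in both heated groups, which overlapped each other, than in unheated controls. MAP1LC3B made up 29.4% and 29.9% of the family in unheated controls, 34.6% and 37% in heated controls and 37.2% and 36.2% in the knockdown. GABARAPL1 went from 22.7% in both unheated libraries to 18.7% and 16.7%, and then 17.5% and 19.2%. GABARAPL2 stayed between 26.4% and 28.9%, and GABARAP between 11.8% and 14.7%. With 2 libraries a group an exact permutation test cannot go below p = 0.333 (two-sided), and the shares were not tested. Plain counts without division by length gave MAP1LC3B 41.3%, 48.7% and 49.3% in the 3 groups.

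The other genes of the family were near silence. MAP1LC3A and GABARAPL3 had at most 1 count in any library, so the detected family was essentially MAP1LC3B and the 3 GABARAP genes. MAP1LC3C stood between 1.15 and 1.92 CPM and was called in no comparison. MAP1LC3B2, a near-identical copy of MAP1LC3B whose reads cannot be separated from it with certainty, was at 2.52 and 1.86 CPM, then 3.45 and 3.43 CPM, and 2.32 and 2.57 CPM. It was called higher with heat (log2 fold change 0.65 ± 0.25, edgeR adjusted p = 0.035), but not without unheated replicate 2, heated control replicate 1 or heated control replicate 2. The antisense genes TAX1BP1-AS1 and GABARAPL1-AS1 had at most 2 counts and 0 counts in a library, and the pseudogenes SQSTM1P1 and MAP1LC3BP1 had 0.

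Genes whose pattern was most like that of SQSTM1 were sought among 11568 other genes of at least 5 CPM. The measure was the root mean square difference of log2 CPM, centred on each gene's mean, over the 6 libraries. The 5 closest were PCED1A (0.023), POMGNT2 (0.0265), H3-3A, a replacement histone H3 (0.0288), NSUN7 (0.033) and PPP6R3, a regulatory subunit of protein phosphatase 6 (0.033). Among the members NBR1 was nearest to SQSTM1 (0.0969), and TAX1BP1 was the farthest from it (0.532).

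Beyond the members, 9 lists of autophagy genes by role held 110 symbols, of which 107 rows were tested. Heat shock called 37 of the 107 higher and 25 lower (57.9%, against 43.9% of all genes). With library size alone as the scaling these were 27 higher and 34 lower, so the balance of directions depends on the scaling. Knockdown called 38 higher and 27 lower (60.7%, against 54.5%), and heated knockdown cells against unheated controls 49 higher and 25 lower (69.2%, against 62.2%). The median log2 fold changes were 0.07, 0.01 and 0.12. Here and below, the lists were not matched to all genes by level, and changes are called more readily at high counts. Differences between a list's share called and that of all genes were not tested.

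**Figure D4:**
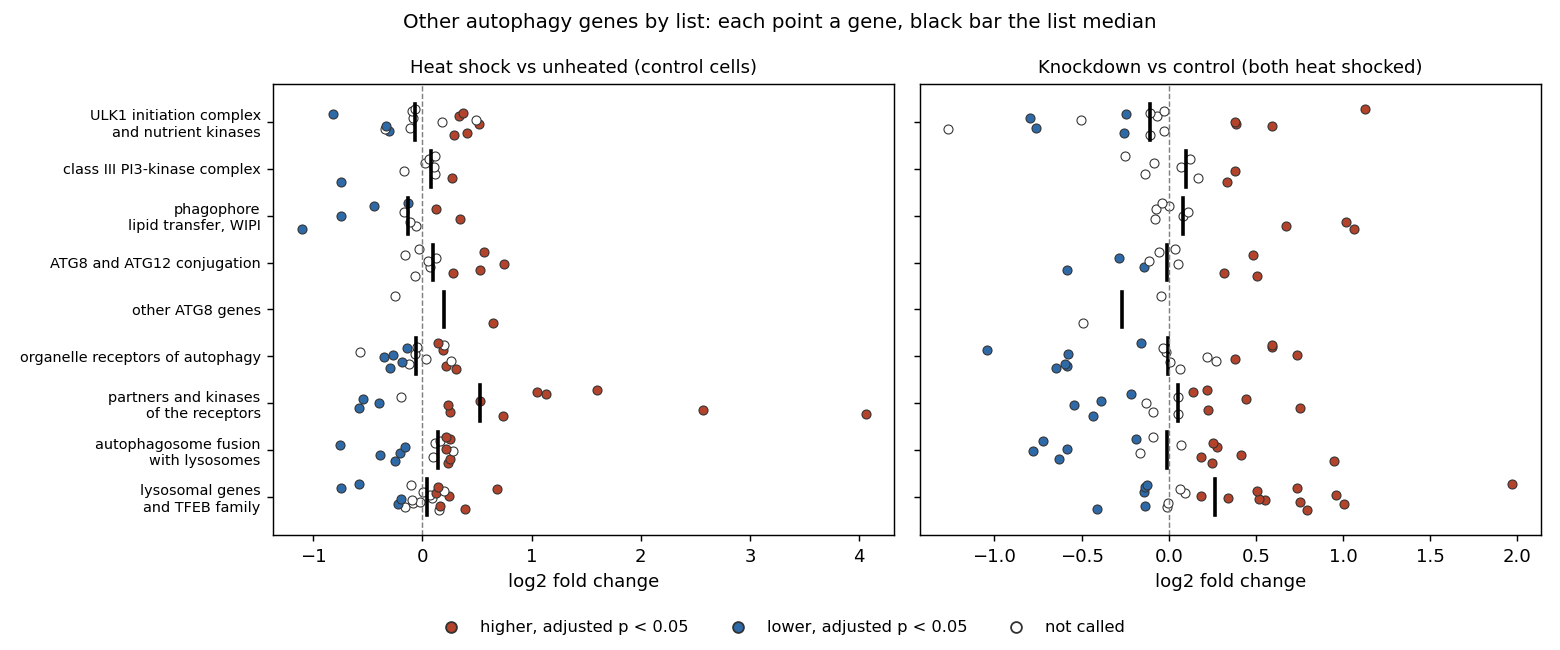
log2 fold change (horizontal axis) of each tested gene of the 9 lists, in heat shock (left) and in the knockdown (right), with filled points for adjusted p under 0.05 and a black bar at the list median. BAG3 at 4.06 and HSPB8 at 2.57 stand far right in the heat panel, and TFEB at 1.97 in the knockdown panel.

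Partners and kinases of the receptors included the largest heat responses of the lists. Of 13 tested, 9 rose and 3 fell with heat (92.3%, against 43.9% of all genes), with a median log2 fold change of 0.53. BAG3, which with HSPB8 routes misfolded proteins to autophagy, rose from 109 and 101 CPM to 1704 and 1787 CPM (edgeR adjusted p = 7.86e-26), and HSPB8 rose 5.92-fold. The 3 that fell, named after their values were seen, were TBK1, the kinase of OPTN, SQSTM1 and others (-0.54), KEAP1, the adaptor that degrades NRF2 and is bound by SQSTM1 (-0.58), and the ubiquitin ligase STUB1 (-0.39). In the knockdown 5 rose and 4 fell (69.2%, against 54.5% of all genes). KEAP1 rose from 29.1 and 29.8 CPM to 49.6 and 49.9 CPM (0.76 ± 0.08, adjusted p = 1.21e-08) and TBK1 from 33.2 and 30.5 CPM to 42.7 and 43.8 CPM (0.44 ± 0.07, adjusted p = 1.88e-05). NFE2L2, which encodes NRF2, fell from 129 and 132 CPM to 89.4 and 89.8 CPM (-0.54 ± 0.05, adjusted p = 2.96e-09). BAG3 was at 1812 and 1804 CPM there.

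Around ULK1, heat shock raised 5 of 15 genes of the initiation complex and its nutrient kinases and lowered 3. The knockdown raised 4 and lowered 4. In each comparison 53.3% of the list was called, against 43.9% of all genes in heat shock and 54.5% in the knockdown. RPTOR, the scaffold of the mTORC1 kinase that restrains ULK1, fell with heat from 86.6 and 86.1 CPM to 46.7 and 51.5 CPM (log2 fold change -0.81 ± 0.06, edgeR adjusted p = 1.09e-10). ATG101, a subunit of the ULK1 complex, rose (0.41). Of the catalytic subunits of AMPK, PRKAA2 rose (0.52, group means 11.6 and 16.6 CPM) and the more abundant PRKAA1 fell (-0.33, 99.8 and 79.5 CPM, adjusted p = 3.06e-05). In the knockdown RB1CC1, the scaffold of the ULK1 complex, fell from 98.2 and 95 CPM to 55.1 and 55.9 CPM (-0.80 ± 0.06, adjusted p = 1.70e-11) and MTOR from 129.5 and 123 CPM to 69.9 and 78.9 CPM (-0.76 ± 0.06, adjusted p = 7.04e-11). PRKAA1 (0.59) and PRKAA2 (0.39) both rose.

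Genes of membrane growth and ATG8 conjugation moved as follows. The class III PI3-kinase complex marks the site of membrane growth with a lipid. Of its 8 genes, 1 rose with heat and 1 fell (25%, against 43.9% of all genes): ATG14 (log2 0.27) and AMBRA1 (-0.74). ATG14 lost that call with library size alone (edgeR adjusted p = 0.0503), with DESeq2 (0.104) and without unheated replicate 2 (0.0863) or heated control replicate 1 (0.0874). In the knockdown 2 rose, NRBF2 (0.38) and AMBRA1 (0.34), and 0 fell (25%, against 54.5% of all genes). AMBRA1 lost that call with DESeq2 (adjusted p = 0.0573), and without knockdown replicate 2 the list's count was 4. For lipid transfer and WIPI proteins, 2 of 9 rose and 4 fell with heat (66.7%, against 43.9%). ATG2A, which carries lipids into the growing membrane, fell from 43.3 and 43.9 CPM to 20.5 and 20.0 CPM (-1.11 ± 0.10, adjusted p = 8.40e-09), VMP1 fell by 0.74 and WIPI1 by 0.44. In the knockdown 3 of the 9 rose and 0 fell (33.3%, against 54.5%). ATG2A rose to 36.9 and 47.7 CPM (1.06), ATG9A, a lipid scramblase, from 26.9 and 28.3 CPM to 54.5 and 57.4 CPM (1.02), and ATG2B by 0.67. In the list of conjugation genes, whose products attach ATG8 proteins to lipid, 4 of 10 rose and 0 fell with heat (40%, against 43.9%). They were ATG4A (0.75), ATG5 (0.56), ATG16L1 (0.53) and ATG12 (0.28). Without heated control replicate 1 that count was 2, and ATG4A was among those lost (0.0554), as it was with DESeq2 (0.0519). In the knockdown 3 rose and 3 fell (60%, against 54.5%). ATG16L1 was back at 39.6 and 40.2 CPM from 61.3 and 58.2 CPM (-0.58 ± 0.07, adjusted p = 1.02e-07), and ATG12 (0.32) and ATG4D (0.48) were higher. ATG4D lost its call with DESeq2 (adjusted p = 0.123), where the list's count was 2. It also lost it without heated control replicate 1 (log2 0.48) or replicate 2 (0.47).

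Among receptors of organelles, 4 of 16 rose and 5 fell with heat (56.2%, against 43.9% of all genes). The largest called changes were FUNDC1 (log2 -0.35), ATL3 (0.31) and BCL2L13 (-0.29). With DESeq2 the calls of FUNDC1 (adjusted p = 0.0944) and BCL2L13 (0.0754) were lost, and 2 of the list were called. In the knockdown 4 rose and 6 fell (62.5%, against 54.5% of all genes). RTN3, a receptor of endoplasmic reticulum tubules, fell to 48.5% of heated controls (log2 -1.04 ± 0.06, edgeR adjusted p = 1.58e-13), BCL2L13, a mitochondrial receptor, fell by 0.64, and NCOA4, the receptor of ferritin, rose from 131 to 218 CPM (0.74 ± 0.05, adjusted p = 2.53e-12).

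Of 20 lysosomal genes and their TFEB family regulators, 11 were higher in the knockdown and 5 lower (80%, against 54.5% of all genes). The list's median log2 fold change was 0.26. TFEB, a transcription factor of lysosomal and autophagy genes, went from 3.3 and 3.86 CPM in the heated controls to 13.1 and 15.1 CPM in the knockdown, and the unheated libraries held 5.73 and 5 CPM (1.97 ± 0.16 against heated controls, edgeR adjusted p = 3.11e-10). For TFEB the knockdown libraries were above every control library. TFE3, a more abundant gene of the same family, was at 137.6 and 138.6 CPM in unheated and 126.2 and 131.3 CPM in heated controls. In the knockdown TFE3 was at 118.1 and 118.3 CPM. MITF, also of this family, was at 32.5 and 33.7 CPM in heated controls and 33.9 and 35.3 CPM in the knockdown. CTSB, a lysosomal protease, went from 210.2 and 209 CPM to 442.5 and 399 CPM (1.01 ± 0.05, adjusted p = 4.77e-14). With heat alone 6 of the 20 rose and 4 fell (50%, against 43.9% of all genes), with a median of 0.04. MITF, of the same family as TFEB, rose (0.69), and NAGLU (-0.75) and TFEB (-0.58) fell, the call of TFEB being lost with DESeq2 (0.129) and without unheated replicate 1 (0.126) or heated control replicate 1 (0.114). The list's count in heat shock was 4 without unheated replicate 1, 6 without unheated replicate 2 and 5 without heated control replicate 2. For fusion of autophagosomes with lysosomes, 5 of 14 genes rose and 5 fell with heat (71.4%, against 43.9% of all genes), VPS18 by the most (-0.76). In the knockdown 6 rose and 5 fell (78.6%, against 54.5%), with PLEKHM1 higher (0.95) and VPS39 and RAB7A lower (-0.72 and -0.63). The fusion list's 10 calls in heat shock became 6 without unheated replicate 1, unheated replicate 2 or heated control replicate 1.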

How the data were processed

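The authors deposited raw counts per gene, whole numbers with no normalization, and per the file headers the table has the column layout of featureCounts. HISAT2 2.2.1 and GRCh38 are named in the submitters' processing notes, as are Trim Galore 0.6.7 and featureCounts 2.0.2. Not given in the sources used here are which annotation was counted, whether strand was used and how multi-mapping reads were handled. The 10 genes and the pathway lists were chosen with earlier results of these data known. Symbols were matched for 62666 of 63187 gene IDs. All 6 libraries entered 1 edgeR 4.0.16 fit in R 4.3.3 (quasi-likelihood F test, robust, TMM, filterByExpr with a minimum count of 10) with 3 residual degrees of freedom. To these the test adds degrees of freedom borrowed from the spread of other genes, so p and intervals do not rest on a gene's own libraries alone. The SE is the absolute log2 fold change over the square root of F. Adjusted p is Benjamini-Hochberg over 17290 genes, with 0.05 as threshold. The test was also run on data simulated with the spread fitted here, with far fewer changed genes than were called here. That run does not show how calls behave where so many genes change. The common biological coefficient of variation was 3.69%. CPM uses TMM-scaled library sizes, and 1 count was worth 0.063 to 0.0768 CPM, which limits the precision of low values. The labels do not tell whether replicates were grown separately, so every p rests on a spread that may be technical only. Libraries of a group differed by more than counting noise (chi-square per gene 1.52 to 3.41). Named were the 10 genes, YTHDC1, near copies, and from each list and comparison up to 3 called genes of at least 5 CPM with the largest change. Alternatives were library size alone, RLE factors, DESeq2 1.42.0, limma voom 3.58.1, no filter, no robust estimation, 2 groups only, a replicate block, copies summed, and each library left out. Shares, count ratios and the promoter search were added after values had been seen. Promoter sequences are from RefSeq. Methylated RNA samples were not analysed here. Some genes that the naming rule picked are not reported here.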

Additional observations from a re-analysis of the deposited data

How the results depend on the processing

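Of 450 values of the 10 genes under the alternatives, 413 kept direction and call, 23 lost the call, 2 gained it and 12 changed sign, all of them without a call in either fit. In heated knockdown against unheated controls SQSTM1 was at -0.00818 (log2) with library size alone and GABARAPL1 at 0.00376 with RLE factors. With 1 library left out, log2 fold changes in heat shock ran from -0.00525 to 0.366 (GABARAP) and -0.207 to 0.0291 (GABARAPL1). Those in the knockdown ran from -0.000452 to 0.0541 (CALCOCO2), -0.1701 to 0.204 (GABARAP), -0.0429 to 0.196 (GABARAPL1) and -0.0831 to 0.0984 (GABARAPL2), and those of heated knockdown against unheated controls from -0.0471 to 0.028 (GABARAPL1) and -0.323 to 0.0666 (ULK1). The heat and knockdown calls of SQSTM1, NBR1, TAX1BP1 and ULK1, and the heat call of MAP1LC3B, were kept under every alternative run. With DESeq2, heat shock called 2 members higher and 2365 of all genes lower (edgeR 4 and 4033), and heated knockdown against unheated controls called 2 higher, as with library size alone (edgeR 4). For the class III PI3-kinase list DESeq2 called 1 gene in heat shock, 1 in the knockdown and 2 in heated knockdown against unheated controls, where library size alone gave 2 and no filter 3. DESeq2 also called 2 conjugation genes in the knockdown, 2 organelle receptors and 6 fusion genes in heat shock, and among the other ATG8 genes it called 0 there, as did library size alone and no filter. The causes were not tested. With 1 library left out, counts in heat shock ran from 1 to 3 (PI3-kinase), 2 to 5 (conjugation), 0 to 1 (other ATG8), 6 to 11 (fusion) and 4 to 11 (lysosomal). In the knockdown they ran from 2 to 4 (PI3-kinase) and 3 to 6 (conjugation), and for heated knockdown against unheated controls from 2 to 3 members higher and 2 to 5 PI3-kinase genes. Plain counts gave MAP1LC3B 41.3%, 48.7% and 49.3% of the ATG8 family in unheated, heated and knockdown cells, GABARAPL1 25.4%, 19.3% and 19.9%, GABARAPL2 23.3%, 22.6% and 22.1%, and GABARAP 7.54%, 6.94% and 6.82%. Counted with MAP1LC3B2, MAP1LC3B made up 32.2%, 39.1% and 38.9%. Replicate numbers did not pair the libraries (correlations of their deviations -0.012, -0.026 and 0.022); with the replicate block heat shock called 4 members higher and 3 lower, and 3528 genes higher. Depth limits MAP1LC3B2 (29 to 48 counts) and MAP1LC3C (15 to 30 counts).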
